A study of Mus musculus with 2 samples.

Results

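Histone genes were described in adult mouse liver, in 1 wild-type pool and 1 pool labelled as homozygous for loss of the LIM-domain cofactor gene Fhl2. The genes were chosen by symbol: every probe set (called a probe here) annotated to exactly 1 gene symbol that starts with H1f, H2ac, H2bc, H2az, H3c, H3f, H4c, Hist1h, Hist2h or Hist3h. Where a gene had several such probes, the one with the highest mean of both arrays stood for it, so that choice was made on measured values. This gave 33 of 19938 genes, from 34 probes. They comprised 8 H1, 6 H2A, 9 H2B, 4 H3 and 6 H4 genes. A further 32 probes name a histone of these groups together with other genes and were left out of the 33. They are described separately.

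Both pools came from male mice, 3 per pool, aged 10 to 11 weeks, on a hybrid Black Swiss/129-SV/J background. The RNA came from the left lobe of the liver. The first pool is wild-type and the second is labelled FHL2-/-, from a knockout line generated earlier, and it is called the knockout-labelled pool because the array does not verify the genotype. The Fhl2 probe read 5.30 and 5.33 (log2) in wild-type and knockout-labelled RNA. Both values lie below the level filter defined further on, so the probe was dim in the wild-type pool too. A loss of Fhl2 RNA could therefore not be judged from it. Which exons were deleted is not given in the sources used here. Each group is 1 array of pooled RNA. There are therefore no replicates, no value has a replicate error, no p-value is given, and every difference is between these pools rather than between genotypes.

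Histones package DNA into nucleosomes. The core histones H2A, H2B, H3 and H4 form the octamer around which DNA is wound, and H1 histones bind the linker DNA between nucleosomes. Most are encoded in gene clusters whose messenger RNAs are made in S phase and end in a stem-loop instead of a poly(A) tail. Replacement variants, such as H2A.Z and H3.3, come from genes outside these clusters and are made throughout the cell cycle. Most hepatocytes of adult liver are not dividing. The whole-transcript kits named in the labels prime cDNA along the RNA, so transcripts without a poly(A) tail can be measured.

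Values are log2, 1 per probe and array, and a difference is the knockout-labelled minus the wild-type value. Values of different probes are not compared as amounts of RNA, since probes differ in brightness. A level filter set at log2 5.44, the 40th percentile over single-symbol probes, separates dim genes from the rest. The array medians were 5.76 for the wild-type pool and 5.71 for the other. The spread between probes of 1 gene, the only repeat measurement on these arrays, had an SD of 0.143 in the difference. It was taken over probes past the filter only (660 genes, 1809 probes). It covers probe error and neither animals nor hybridisations. All 9 hepatocyte markers were past the filter, from Hnf4a at 10.68 to Alb at 13.74 in the wild-type pool, and their differences ran from -0.07 to 0.15.

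Of the 33 histone genes, H2bc9 was the only one at least 1.5-fold apart between the pools, and smaller differences lay on both sides of 0. Across the 33 genes the median difference was -0.05, against 0.02 over all genes, and 14 of 33 (42.4%) were above 0, against 53.6% of all genes. In the knockout-labelled pool 0 of the 33 were at least 1.5-fold higher, where 0.767% of all genes were. At least 1.5-fold lower was 1 of the 33, H2bc9, against 0.667% of all genes. The level filter kept 21 of the 33, of which 0 were at least 1.5-fold higher and 1 lower, against 0.621% and 0.335% of genes past the filter. With counts of 0 and 1, shares among the histone genes cannot be compared closely with the background shares. The count of 1 rests on a single gene and a single probe. Within 0.1 of 0 lay 9 of the 33 histone genes, against 7976 of all 19938 genes.

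Beyond 2 probe SDs, which is 0.286, lay 6 genes on the lower side (18.2%, against 8.05% of all genes) and 4 on the higher side (12.1%, against 7.60%). The lower ones were H2bc9, H2bc22, H2bc21, H2bc18, H1f5 and H1f2, so 4 of the 6 encode H2B. On the higher side were H1f6, H4c9, H4c8 and H1f3. The SD pools genes of all kinds and may be too small for histone probes. Among the left-out probes, the 10 that name the same 12 H3 genes ran from -0.60 to 0.53. The 5 that name the same 11 H4 genes ran from -0.45 to 0.21. A difference beyond 2 probe SDs can therefore still lie within the spread between histone probes. The SD comes from probes past the level filter, so it may be too small for dim genes. H2bc22, H2bc18, H1f6 and H1f3 had means below that filter. Of the 21 histone genes past it, 4 lay on the lower side (19.0%, against 5.02% of all genes past it). On the higher side lay 2 (9.52%, against 7.08%). When all genes were divided into 20 bins of level, 28 of the 33 histone genes lay within the central 95% of their bin. H2bc9, H2bc22, H2bc21 and H1f2 were below it and H1f6 was above it. By construction 5% of all genes lie outside.

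**Figure D1:**
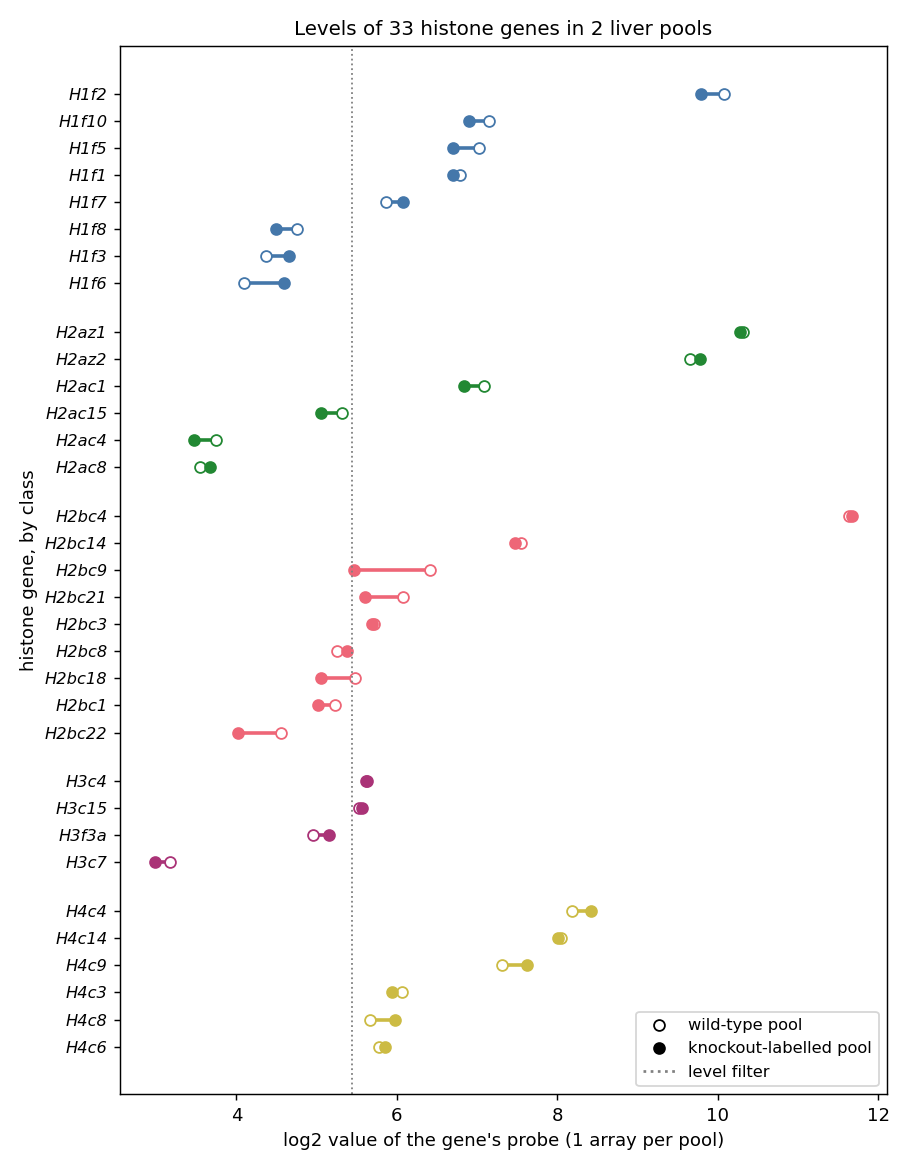
Log2 value of each of the 33 histone genes in the wild-type pool (open circle) and the knockout-labelled pool (filled circle), 1 array each, grouped by class from H1 at the top to H4 at the bottom and coloured by class. The dotted line marks the level filter at 5.44. The longest line is that of H2bc9, from 6.41 to 5.47, and 12 genes have a mean below the filter.

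**Figure D2:**
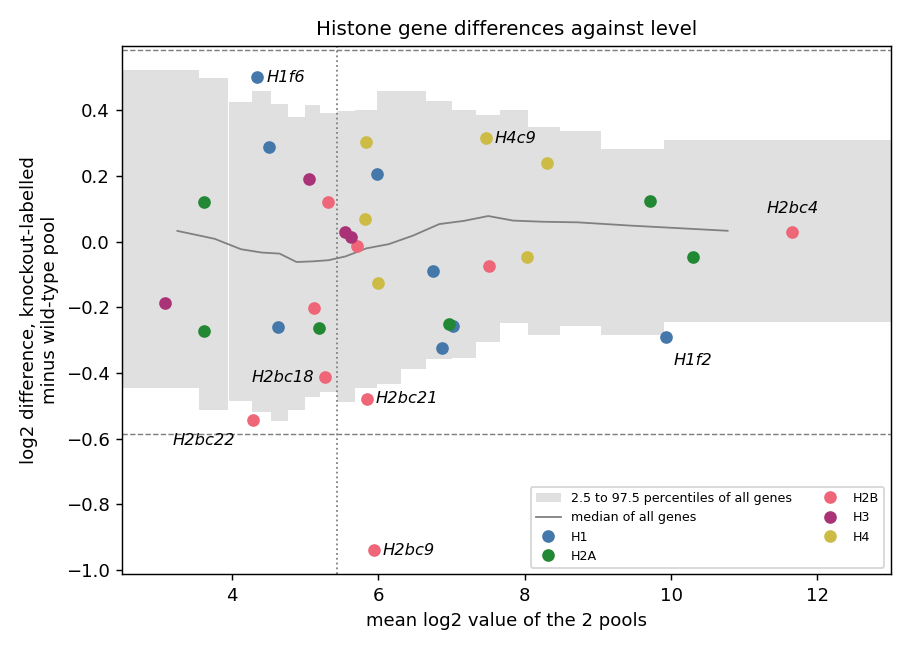
Log2 difference of each histone gene (vertical axis, knockout-labelled minus wild-type pool) against its mean log2 value (horizontal axis), with the central 95% of all genes in each of 20 level bins in grey, their median as a line, 1.5-fold as dashed lines and the level filter as a dotted line. H2bc9 lies at -0.94 below the 1.5-fold line. The other 32 histone genes lie between the dashed lines.

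The H2B genes held the largest single difference of the 33. H2bc9, a core histone gene of the main cluster, read 6.41 in wild-type and 5.47 in knockout-labelled RNA. It was 1.92-fold lower there, a difference of -0.94, and had rank 4 from the bottom among 11924 genes past the filter. Its value in the knockout-labelled pool was just above the filter of 5.44, so the size of the fold is uncertain. H2bc22 went from 4.56 to 4.02 (difference -0.54), with both values below the filter. H2bc21 went from 6.08 to 5.60 (-0.48) and H2bc18 from 5.47 to 5.06 (-0.41). These 4 genes were 1.33-fold to 1.92-fold lower in the knockout-labelled pool.

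The other 5 H2B genes differed less. H2bc4, whose probe was bright in both pools, read 11.64 and 11.67 (difference 0.03). H2bc14 read 7.54 and 7.47, and H2bc3 read 5.71 and 5.70. H2bc8 went from 5.26 to 5.38, the highest difference of the class at 0.12. H2bc1, the testis H2B variant, went from 5.22 to 5.02. Over the 9 genes the median difference was -0.20, and 2 of the 9 were above 0. With the 4 H2B genes below the filter left out, the median over the remaining 5 was -0.07.

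The start regions of the H2B genes are shown because the class holds the gene furthest apart. Promoters came from RefSeq (GRCm38.p6), which gave 29 of the 33 members. The 250 bases before each start were searched on both strands for TATAAA, for CCAAT and for ATTTGCAT, the octamer motif known from H2B promoters. The octamer was in 5 of 7 H2B promoters (71.4%), in 3 of 6 H2A promoters, and in 0 of the H1, H3 and H4 promoters, against 1.60% of all 32851 promoters. CCAAT was in 7 of 7 H2B promoters, against 33.8% of all, and TATAAA in 4 of 7, against 12.4%. H2bc9 (chr13:23543445-23543644, minus strand) and H2bc22 (chr13:21787288-21787487, plus strand) have no ATTTGCAT in this window. H2bc18 (chr3:96269500-96269699, plus strand) and H2bc14 (chr13:21721844-21722043, plus strand) have it. The last 200 bases before the start follow, 5′ to 3′ on the gene's strand, with matches to any of these motifs, on either strand, in capitals.
H2bc9: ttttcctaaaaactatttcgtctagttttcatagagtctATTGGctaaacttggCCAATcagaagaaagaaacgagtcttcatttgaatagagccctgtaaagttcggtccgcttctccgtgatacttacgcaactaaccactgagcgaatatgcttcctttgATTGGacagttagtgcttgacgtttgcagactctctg
H2bc22: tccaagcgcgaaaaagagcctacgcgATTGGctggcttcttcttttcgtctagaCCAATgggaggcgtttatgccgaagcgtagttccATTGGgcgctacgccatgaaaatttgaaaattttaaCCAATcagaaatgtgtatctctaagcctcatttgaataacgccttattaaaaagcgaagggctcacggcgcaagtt
H2bc18: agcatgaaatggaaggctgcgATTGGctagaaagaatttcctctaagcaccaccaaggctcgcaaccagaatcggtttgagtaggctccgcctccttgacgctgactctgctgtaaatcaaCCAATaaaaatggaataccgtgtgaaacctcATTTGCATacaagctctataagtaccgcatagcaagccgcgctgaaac
H2bc14: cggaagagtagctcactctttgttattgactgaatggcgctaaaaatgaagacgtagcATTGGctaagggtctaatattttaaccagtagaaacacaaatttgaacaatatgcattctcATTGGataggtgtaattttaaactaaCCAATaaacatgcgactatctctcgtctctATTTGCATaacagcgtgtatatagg

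Of the 7 H2B genes with a promoter, the 2 without an exact ATTTGCAT had the lowest differences. H2bc9 (-0.94) and H2bc22 (-0.54) lack it, while H2bc18 (-0.41), H2bc14 (-0.07), H2bc3 (-0.01), H2bc8 (0.12) and H2bc1 (-0.20) have it. This was seen after the differences were known, and the promoters of H2bc21 and H2bc4 were not analysed here. H2bc9 and H2bc22 each hold ATTTGAAT, which differs from the octamer by a single base, and only exact matches were counted. H2bc22 was also below the level filter in both pools, and H2bc18, H2bc8 and H2bc1 had means below it. The H2A genes did not divide in this way. H2ac1 (-0.25), H2ac4 (-0.27) and H2ac8 (0.12) have the exact octamer. H2ac15 (-0.26), H2az1 (-0.05) and H2az2 (0.13) lack it. A link between the motif and the differences was not tested. In H2bc18 the exact octamer lies 48 to 41 bases before the start, and in H2bc14 25 to 18 bases before. None of the motifs printed in capitals overlap each other in these 4 sequences. H2bc9 has 3 CCAAT matches, at 161, 146 and 37 bases before the start by their first base. A match describes letters and not binding, and the RefSeq starts differ in how they sit relative to such motifs.

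Linker histone H1 genes of the replication-dependent cluster were lower in the knockout-labelled pool in 3 of 4 cases, as were 9246 of all 19938 genes. H1f2, a main somatic H1 gene, read 10.08 and 9.79, at -0.29. H1f5 went from 7.03 to 6.70 (-0.32), the lowest difference of the class. H1f1 read 6.79 and 6.70, a difference of -0.09 that is smaller than 1 probe SD. H1f3 was dim and went the other way, from 4.36 to 4.65 (0.29). H1f10, a replication-independent H1 gene, went from 7.15 to 6.89 (-0.26).

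The H1 genes known from germ cells were dim or near the filter. H1f6, the testis H1, went from 4.09 to 4.60, which at 0.50 was the highest difference of the 33 and lay wholly below the filter. H1f7, of spermatids, went from 5.87 to 6.08, and H1f8, of oocytes, from 4.75 to 4.49. Over all 8 H1 genes the median difference was -0.17 and 3 were above 0. The mean was -0.03, since H1f6 and H1f3 weigh on it. Of the 5 H1 genes past the filter, 4 were below 0, with a median of -0.26.

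H2A genes divide into replacement variants and cluster genes. H2az1 and H2az2 encode H2A.Z, a variant found at promoters. H2az1 read 10.32 and 10.27, a difference of -0.05, and its second probe read 10.03 in both pools, a difference of 0.0024. H2az2 went from 9.65 to 9.77 (0.13), the highest difference of the class. These variants thus differed by less than the spread between probes of 1 gene.

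Among the H2A cluster genes 3 of 4 were lower in the knockout-labelled pool by 0.25 to 0.27, where 9246 of all 19938 genes were below 0. H2ac1, the testis H2A variant, went from 7.09 to 6.84. H2ac15 went from 5.31 to 5.05 and H2ac4 from 3.75 to 3.47, both below the filter. H2ac8 went from 3.55 to 3.67. The median over the 6 H2A genes was -0.15, and -0.05 over the 3 past the filter.

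The H4 genes ranged from -0.13 to 0.31. H4c9 went from 7.31 to 7.62 (difference 0.31), H4c8 from 5.67 to 5.97 (0.30) and H4c4 from 8.18 to 8.42 (0.24). H4c6 read 5.78 and 5.85. H4c14 read 8.05 in the wild-type pool, with a difference of -0.05 in the knockout-labelled pool. H4c3 went from 6.06 to 5.93, the lowest of the class at -0.13. All 6 were past the filter and 4 were above 0 (66.7%), which is near the 59.5% of all genes past the filter. The median difference was 0.16, against 0.04 over all genes past the filter, and it was 0.07 without H4c9. Over all members H2B had the lowest class median, but past the filter H1 was lowest (-0.26, against -0.07 for H2B), as it was over all members after a lowess correction for level (-0.17 against -0.15). The difference between classes was not tested.

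H3 genes were represented by 4 probes, 2 of them past the filter. H3c4 read 5.62 and 5.63, and H3c15 read 5.53 and 5.56. H3c7 went from 3.17 to 2.99. H3f3a, which encodes the replacement variant H3.3, went from 4.96 to 5.15 on a dim probe (0.19). The class median was 0.02.

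Genes that lie side by side were set beside each other, since cluster genes share chromosomal position. In the RefSeq order of GRCm38.p6, 23 of the 33 genes lie on chromosome 13 (median difference -0.07) and 5 on chromosome 3 (median -0.05). H2bc9 lies between H3c8 and H3c7. H3c7 was at -0.19 and H4c6, the next gene, at 0.07. Neighbouring H2A and H2B genes measured by probes of their own were H2ac8 and H2bc8, both at 0.12, and H2ac1 and H2bc1, at -0.25 and -0.20. A further such pair was H2ac4 and H2bc3, at -0.27 and -0.01. H2ac8, H2bc8, H2bc1 and H2ac4 had means below the level filter, so each of these pairs rests in part on dim probes. H4c9 and H4c8 were above 0 but do not lie side by side. Between them lie other histone genes and also genes that are not histones, Vmn1r188 and Btn2a2 among them.

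Most histone genes have no probe to themselves. The probe annotation names 70 histone symbols of these groups, of which 33 have a probe of their own and 37 occur only on probes of several symbols. By class the latter number 1 H1, 13 H2A, 7 H2B, 10 H3 and 6 H4 genes. Coding regions of many cluster core histone genes are nearly identical within a class. Even a probe with 1 symbol may therefore take up transcripts of its relatives, and the value of a single member is uncertain. Of the 73 protein-coding symbols of these groups in RefSeq, 3 were not named on any probe and were not analysed here, H1f0 among them.

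The 32 probes of several symbols lay closer to 0 than the single-gene probes, with 18 of 32 within 0.1 of it against 9 of 33. The shared probes were also brighter, with a median wild-type value of 8.54 against 5.78. Past the filter were 30 of the 32, against 21 of the 33. Within 0.1 of 0 lay 9 of those 21 single-gene probes and 0 of the 12 below the filter. The 32 shared probes had a median difference of 0.07, with 25 of 32 above 0 (78.1%), against 59.5% of genes past the filter. In the level bins from 8.04 to 9.04 the median over all genes was 0.06. The median of the shared probes is thus near that of genes of similar brightness. Many shared probes name the same genes, so their counts are not of separate genes. Some of these probes hold the same values as another, and with such values taken once 23 of 30 were above 0. At least 1.5-fold lower was 1, and 0 were at least 1.5-fold higher. On 8 probes led by H2B symbols all differences were above 0, from 0.04 to 0.26, with a median of 0.08. A pair of them hold identical values, which leaves 7 distinct readings with a median of 0.09. One of these names H2bc6 together with the H1 gene H1f4, at 6.51 and 6.64. The other 7 name H2bc9, and their differences were 0.04 to 0.26, where the probe of H2bc9 alone was at -0.94. The same 7 also name H2bc22, whose own probe was at -0.54. Probes naming many H2B genes therefore do not follow the lower values of H2bc9 and H2bc22, and which genes dominate their signal was not tested.

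Shared probes for cluster H3 genes numbered 10, each naming the same 12 genes. Their median difference was 0.08 and 8 were above 0 (80%), against 59.5% of genes past the filter. They ran from -0.60, on a probe that read 5.90 and 5.30, to 0.53, on one that read 7.49 and 8.02. Probes with the same 12 names thus differed from each other by more than the cluster genes with a probe of their own did within H3. Of 6 probes naming H4 genes, 3 read 0.21 higher in the knockout-labelled pool, and 2 of these hold identical values. The median of the 6 was 0.12, and 0.03 with the identical values taken once. The lowest was at -0.45. The 2 probes shared by H2A genes read 11.38 and 11.46, and 9.78 and 9.77.

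H3.3 was read by 6 shared probes, each naming H3f3a or H3f3b with a predicted gene. All 6 lay within 0.1 of 0, from -0.10 to 0.08. One that names H3f3b read 10.51 and 10.52, and one that names H3f3a read 10.01 in both pools. These were past the filter, unlike the single-gene probe of H3f3a.

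**Figure D3:**
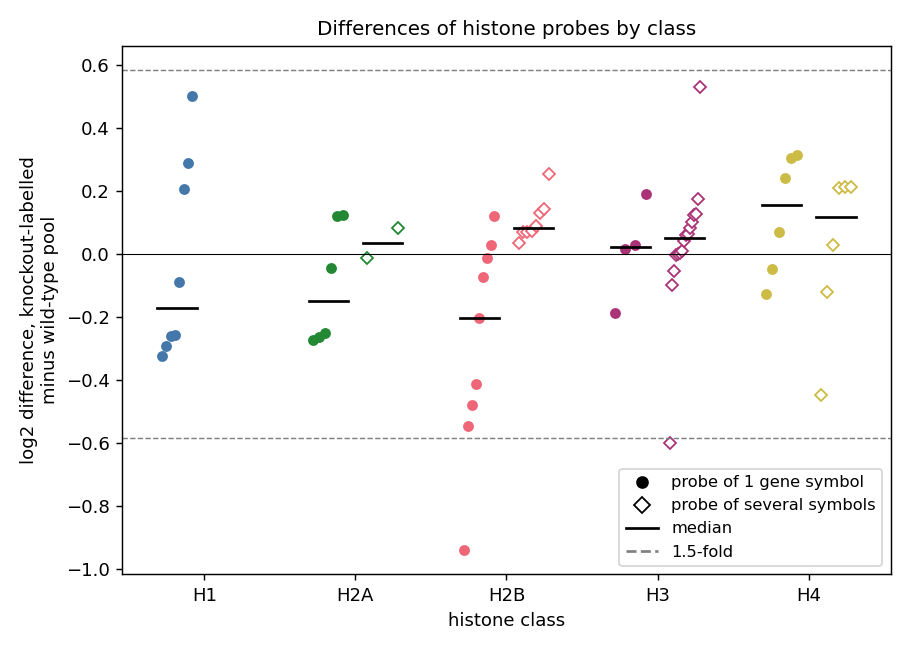
Log2 differences (vertical axis, knockout-labelled minus wild-type pool) of the 33 single-gene probes (filled circles) and the 32 probes of several symbols (open diamonds) by histone class (horizontal axis), with medians as bars and 1.5-fold as dashed lines. For H2B the medians are -0.20 on single-gene probes and 0.08 on shared probes. For H4 they are 0.16 and 0.12, the latter 0.03 with identical values taken once.

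Of 13 histone variants outside the chosen symbols that were measured, 8 were past it, with a median difference of -0.03. H2ax, whose protein is phosphorylated at DNA breaks, read 7.28 and 7.32. Macroh2a1, a variant of silent chromatin, read 9.32 in both pools, and Cenpa, the centromere H3, 7.17 and 7.08. H2aj read 7.85 and 7.77, and H2al2a, a testis variant, 6.04 and 5.75. Below the filter H2ap went from 5.22 to 4.45, a 1.71-fold difference between dim values.

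Genes that make and handle histone messenger RNA numbered 20 past the filter. None of the 20 was at least 1.5-fold apart in either direction, against 0.621% of genes past the filter that were higher and 0.335% that were lower, so the count is near the background. Their median difference was 0.08 and 13 of 20 were above 0, against 59.5% of genes past the filter. Slbp, which binds the stem-loop of histone messenger RNA, went from 7.50 to 7.66. Casp8ap2, needed for histone messenger RNA processing, had the largest difference, from 5.47 to 5.85 (0.38). Eri1, an exonuclease that trims the stem-loop, was at 0.23, Lsm1, of the decay machinery, at 0.23, and Snrpb, a core protein of small nuclear RNPs, at -0.25. Npat, the activator of histone gene transcription, read 5.80 and 5.79.

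Of 28 histone chaperones and exchange factors past the filter, 0 were at least 1.5-fold apart, against the same background of 0.621% and 0.335%. Above 0 were 20 of the 28, against 59.5% of genes past the filter, and the median was 0.08. Ubn1, a subunit of the HIRA complex that deposits H3.3, went from 6.60 to 6.99 (0.39), and Hira itself from 6.86 to 7.07. Nasp, a carrier of H3 and H4, was at 0.23 and Npm1, the nucleolar chaperone, at -0.23.

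Cell division genes were examined because cluster histones are made in S phase. Of 26 past the filter 0 were at least 1.5-fold apart, again against 0.621% and 0.335%. Above 0 were 15 of 26, which is near the 59.5% of genes past the filter, and the median was 0.05. Rrm1, a subunit of ribonucleotide reductase, had the largest difference, from 6.82 to 7.38 (0.57), while Rrm2, its partner subunit, went from 6.11 to 5.83 (-0.28). Ccnd1, cyclin D1, was at -0.35 and Aurkb, a mitotic kinase, at -0.33. Pcna, the replication clamp, read 9.59 and 9.66. The proliferation markers Mki67 and Top2a lay below the filter, at 5.01 and 4.88 and at 5.12 and 4.95.

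Other cell types of liver carry histone transcripts too. Kupffer cell markers were below 0 in 7 of 7 cases, as were 4823 of the 11924 genes past the filter. They ran from -0.40 (Adgre1) to -0.002 (Timd4), so Timd4 was nearly unchanged. Their median was -0.27 and their summed level (log2) was 10.97 in wild-type and 10.74 in knockout-labelled RNA. Genes of the lymphocyte list past the filter were lower in 3 of 3. These were Cd3e (-0.14), Cd8a (-0.40) and Ptprc (-0.27), the last of which is not particular to lymphocytes. The B cell markers Cd79a (0.26) and Ms4a1 (0.05), below the filter, were higher, and the 5 measured summed to 8.04 and 7.84. Sinusoidal endothelial markers were higher in 4 of 5 (summed level 11.26 and 11.38), and stellate cell markers in 1 of 4 (10.74 and 10.63). Bile duct markers were higher in 3 of 4 measured (7.95 and 7.99) and neutrophil markers in 0 of 3 (6.62 and 6.44). Of the red blood cell markers 1 was measured, Alas2, at 9.60 and 9.89. The part of these markers in the lower values of some single-gene H1, H2A and H2B probes was not tested. In pooled tissue, fewer cells of a type and less RNA per cell cannot be told apart.

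**Figure D4:**
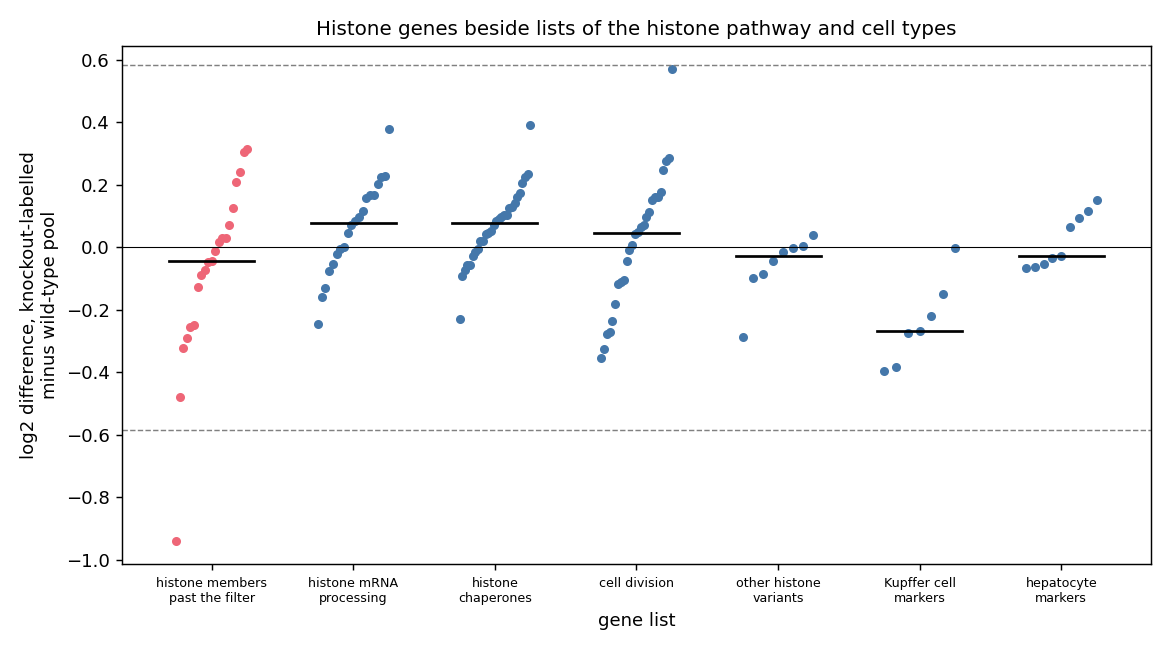
Log2 differences (vertical axis, knockout-labelled minus wild-type pool) of the 21 histone genes past the level filter (red) beside genes past the filter in 6 lists (blue; horizontal axis), with medians as bars and 1.5-fold as dashed lines. The histone median is -0.05 and only H2bc9 passes a dashed line, and the Kupffer cell markers have a median of -0.27.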

How the data were processed

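The authors deposited log2 values for 28853 probes, 1 per array. Affymetrix Expression Console 1.0, RMA and Partek 6.4 are named in the submitters' processing notes, without saying which did what. The build is not given in the sources used here. If RMA made these values, it brought arrays to a common distribution, which hides a change in total RNA, and compressed differences of dim probes. There are no detection calls. Having 1 array per pool limits the precision.

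Gene names are those of the platform annotation: 21789 had 1 symbol, 1621 several and 5443 none. All 33 histone symbols matched RefSeq (GRCm38.p6) by Entrez identifier. Values were used as deposited, with no further scaling, in Python 3.11.15 with pandas 2.3.3 and numpy 2.4.6. Main results use all 33 genes without a level filter. Counts and medians of the lists of related genes use those past the filter, except the bile duct and neutrophil counts, which use all measured genes. Summed levels use all measured genes of a list. They add values of different probes, so they are not amounts of RNA. The counting was tested on simulated data.

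Values in both pools are given for genes at least 1.5-fold apart, for replication-independent genes and, per class, for the brightest probe and both extremes. In the other lists, genes at least 1.5-fold apart and the 3 largest differences are named, and further genes were named after their values were seen. The members and lists were chosen with earlier results of these data known.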

Additional observations from a re-analysis of the deposited data

How the results depend on the processing

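No paired analysis was possible because each group holds 1 array. Alternatives tried were equal array medians, a lowess correction for level (span 0.3), the mean or the dimmest of a gene's probes, level filters at the 40th and 60th percentiles, the addition of probes of several symbols, means, and leaving out the most extreme gene of a class. H2bc9 kept its place past 1.5-fold under both scalings, at 1.86-fold lower with equal medians and 1.90-fold lower with lowess. It has 1 probe, so other probe rules cannot move it. With the filter at the 60th percentile, which leaves H2bc9 out, 0 histone genes were at least 1.5-fold lower, and there were 2 when probes naming only histones were added, or all that name one. The H1 median of -0.17 became -0.027 as a mean. The H2B median of -0.20 became -0.022 at the 60th percentile and 0.035 with all shared probes added, an alternative chosen after seeing the data. The median over all 33 genes turned to 0.02 with probes naming only histones added and to 0.03 with all shared probes. Under each scaling 1 of the 33 genes changed sign. Of the 33 genes, 0 moved by as much as 1 probe SD (0.143) under either scaling or the mean of probes. The signs of the class medians are the same under both scalings.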
